A study of Mus musculus with 2 samples.

Results

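Mature IgD B cells were taken from 2 libraries of cells that were sorted for the red protein tdTomato, from intact mouse femora and from fracture calluses. A cell was a member when it had at least 500 genes, at most 10% mitochondrial UMIs (unique molecular identifiers, each standing for a captured transcript), at least 3 UMIs of Cd79a and Cd79b, at least 2 UMIs of Ighd and Fcer2a, no Cd3e UMI and fewer than 2 Siglech UMIs. The rule took 273 of 4502 cells that passed the gene and mitochondrial limits. Of these members, 54 of 1207 cells came from the intact library, a share of 4.47% (95% exact Clopper-Pearson interval 3.38 to 5.80). The callus library gave 219 of 3295 cells, or 6.65% (5.82 to 7.55). Among cells with 3 or more Cd79a and Cd79b UMIs and no excluding transcript, members made up 19.4% (14.9 to 24.5) of 279 intact cells and 32.3% (28.8 to 36.0) of 677 callus cells. Tissue, dissection and library changed together, so these shares cannot be assigned to the fracture alone.

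The mice of both groups carried Clec3b.creERT2 and Ai14.R26.tdTomato, in which tamoxifen-activated Cre made from the Clec3b locus switches on tdTomato. They were given tamoxifen 2 weeks before surgery and were 6 weeks old at surgery. The callus group had a stabilized femoral fracture, and the intact group, labelled as untreated, was femoral diaphysis with its surrounding muscle. Both were collected 3 weeks after surgery, and the tissue of 3 littermates was pooled into 1 library per group. The methods read as if the same 3 mice gave both pools, which the labels do not state. There was therefore no replicate spread and no test between the groups, and every interval given covers counting error only. The sort was on tdTomato, yet Clec3b, the gene that drives the Cre, gave 0 UMIs in the intact members and 2 in the callus members. The tdTomato label is permanent, so Clec3b levels do not show whether a member was labelled. The paper reports that blood cell clusters among the sorted cells lacked meaningful tdTomato. It read those clusters as artifacts of the sort and left them out.

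The libraries shared 1 cell barcode, which belonged to no member. The littermates were described as male, but Xist, the RNA that coats the inactive X chromosome of female cells (GRCm38, chrX:103460366-103483254, minus strand), was abundant in the members. It stood at 893 CPM, that is counts per 1000000 UMIs summed over the members (95% exact Poisson interval 759 to 1045) in the intact library and at 1370 (1290 to 1454) in the callus library. The Y-linked genes Ddx3y, Eif2s3y, Kdm5d and Uty gave no UMI in either, where 3 counts would be 17.2 and 3.74 CPM. The members therefore go against the stated sex in both libraries alike.

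A naive follicular B cell leaves the bone marrow with IgM on its surface and adds IgD by splicing the same rearranged variable exon to a second constant region. It recirculates through blood, spleen and lymph nodes, carries the low-affinity IgE receptor CD23, encoded by Fcer2a, and presents antigen on MHC class II molecules. Cells that have met antigen switch isotype, enter germinal centres or become plasma cells, and lose IgD.

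The members were small libraries of similar depth in both groups. The 54 intact members held 174659 UMIs, with a median of 2980 per cell (974 to 8176), and the 219 callus members held 801428, with a median of 2896 (1280 to 21077). The whole libraries held 12112002 and 36714322 UMIs. A median member had 1284.5 genes in the intact and 1293 in the callus library, with 2.41% and 2.84% mitochondrial UMIs. Ribosomal protein genes took a median of 25.6% of a member's UMIs in the intact and 25.1% in the callus library, against 2.23% and 3.48% in neutrophils. The share was 26.3% and 26.4% in T cells, defined below, and 18.3% and 19.3% in the Cd79 cells outside the members. Neutrophils were here the cells with at least 50 UMIs of S100a8 and S100a9 and no UMI of Cd79a or Cd79b, a choice that can lower the stray B cell RNA in them. Levels below are in CPM of the summed members of a library, and the 3′ assay counts 1 tag per transcript whatever its length.

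The 5 marker genes set the members apart from T cells and neutrophils, but 28 members carried further programs. Ighd (chr12:113406604-113416324, minus strand), the constant region of IgD, stood at 1013 (870 to 1174) in the intact and 948 (882 to 1018) in the callus members. Fcer2a (chr8:3681737-3694175, minus strand) stood at 532 (430 to 652) and 353 (313 to 397). Both were used to choose the cells, so these levels are a description. The other 3 markers were not part of the rule.

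Ms4a1 (chr19:11249675-11266241, minus strand), which encodes the surface protein CD20, stood at 962 (822 to 1119) in the intact and 896 (832 to 964) in the callus members. Fcmr (chr1:130865669-130880791, plus strand), the receptor for the Fc part of IgM, stood at 447 (353 to 557) and 540 (491 to 594). Bank1 (chr3:136053363-136326066, minus strand), a scaffold of B cell receptor signalling, stood at 407 (318 to 513) and 540 (491 to 594). For none of these 3 did the counting intervals of the libraries separate. In T cells, taken as cells with at least 2 Cd3e UMIs and again none of Cd79a or Cd79b, none of the 3 gave a UMI, and neutrophils held 0 and 2 UMIs of Ms4a1. After each cell was thinned to 2000 UMIs, which left 50 intact and 204 callus members, Ms4a1 was seen in 74.0% (59.7 to 85.4) and 79.9% (73.7 to 85.2) of them. After the same thinning it was seen in 0 of 292 intact and 0 of 711 callus neutrophils. With 3 cells as the limit for a count of 0, the shares seen at this depth could be up to 1.03% and 0.422%. Bank1 was not absent from neutrophils. It was seen at this depth in 2.05% of intact and 2.25% of callus neutrophils, against 54.0% and 67.6% of members.

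**Figure D1:**
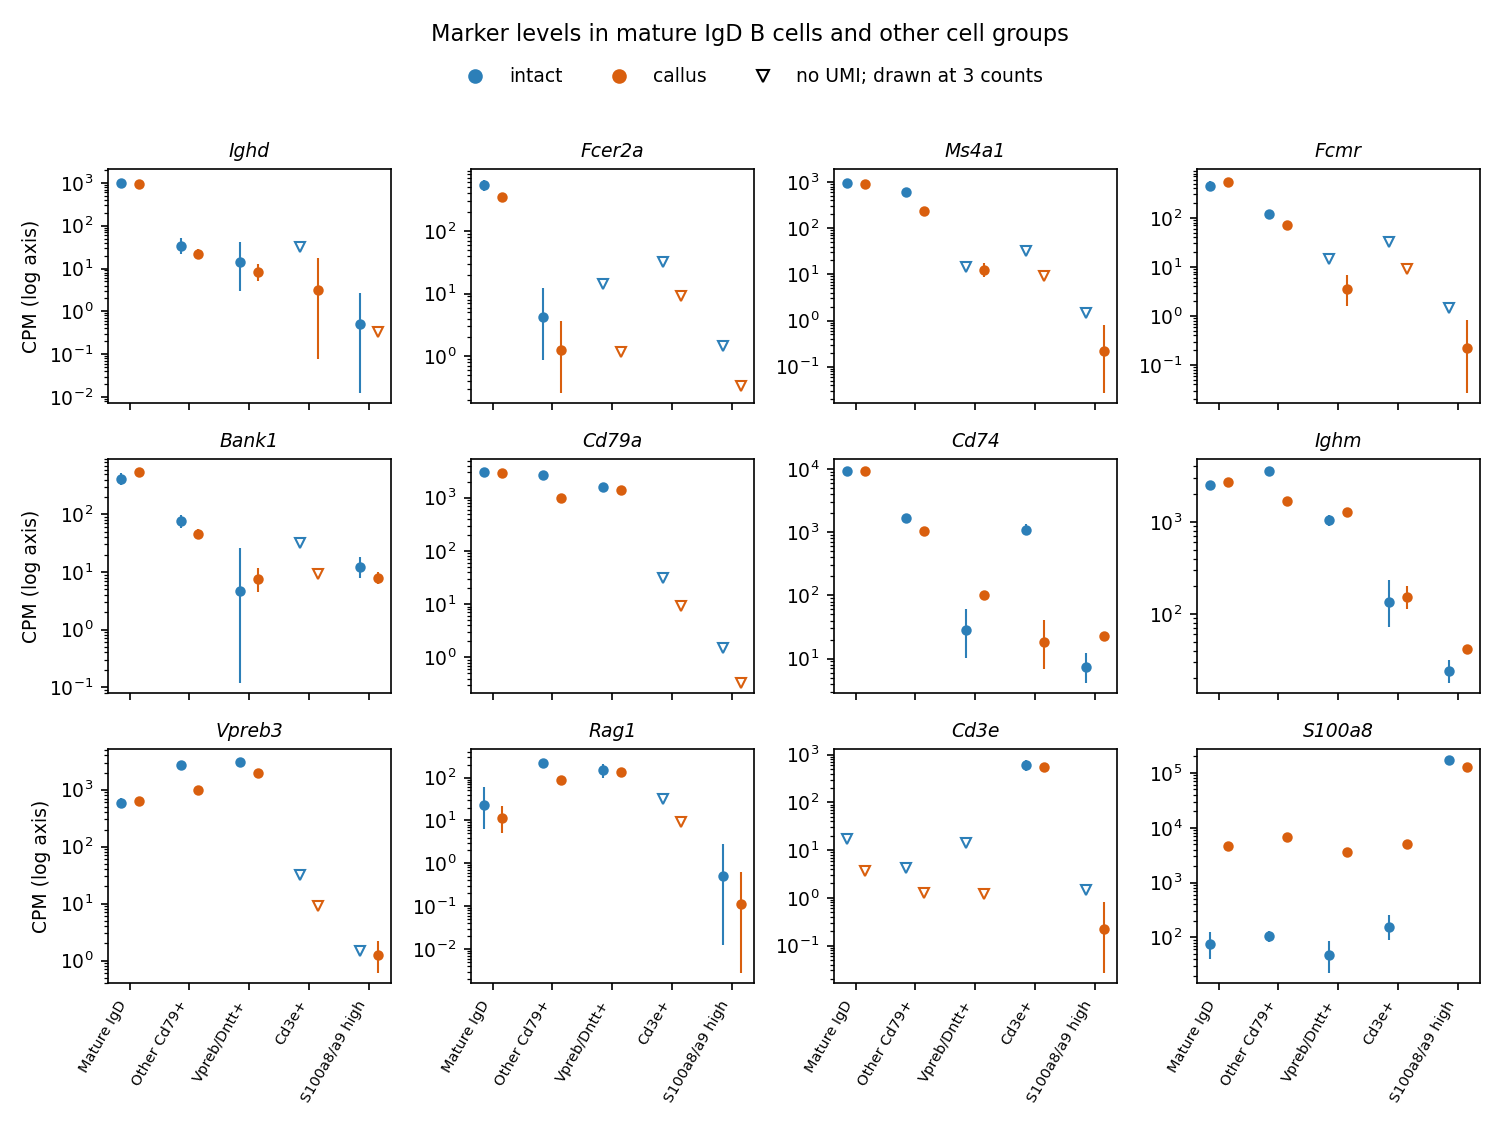
Levels in CPM on log axes of the 5 markers and 7 other genes, for the members, the other Cd79 cells without and with precursor transcripts (Vpreb/Dntt+), T cells (Cd3e+) and neutrophils (S100a8/a9 high) of each library, with exact Poisson 95% intervals as bars and open triangles at 3 counts where no UMI was found. Ms4a1, Fcmr and Bank1, which were not in the rule, were highest in the members in both libraries.

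Within the rule, the members were not alike. Both Ighd and Fcer2a were detected in 31 intact (57.4%) and 125 callus members (57.1%). Ighd alone was detected in 16 intact (29.6%) and 88 callus members (40.2%), and Fcer2a alone in 7 and 6. At the edge of the rule, 10 intact and 50 callus members had exactly 2 UMIs of the pair, and 30 and 76 Cd79 cells with 1 UMI lay just outside. Just inside, Ms4a1 stood at 1164 in the intact and 892 in the callus library, and just outside at 843 and 319. The class II genes H2-Aa, H2-Ab1 and H2-Eb1 together stood at 5946 and 5928 just inside and at 1660 and 1424 just outside. Vpreb3, a gene of pre-B and immature B cells, ran the other way, with 1604 and 1357 just inside, 2929 and 1794 just outside, and 290 and 398 in cells with 4 or more UMIs.

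A few callus members also carried transcripts of dividing precursors or of other lineages. In all, 4 intact and 24 callus members had at least 2 UMIs of the surrogate light chain genes and Dntt, at least 3 UMIs of cell cycle genes, or many UMIs of another cell type. These limits were chosen after their values were seen. Of the 24 callus cells, 14 were of the precursor or cycling kind and held 18.2% of the callus members' UMIs, while 11 carried another lineage and held 10.0%, with 1 cell counted in both. Their median depth was 7662.5 UMIs, against 2847 in the other 195 callus members. In the 14 precursor or cycling cells, 8 had exactly 2 UMIs of Ighd and Fcer2a, Mki67 of dividing cells stood at 1137 and Cd74 at 1699. In the 195 remaining callus members Mki67 stood at 5.15 and Cd74 at 12006. Values without these 28 cells are given below for the results they move most.

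The heavy chain transcripts were of the unswitched isotypes IgM and IgD. Ighm (chr12:113418558-113422730, minus strand), the constant region of IgM, stood at 2496 (2267 to 2742) in the intact and 2735 (2622 to 2852) in the callus members. Every member had at least 1 Ighm UMI, with a median of 6.5 per cell in the intact and 8 in the callus library. The IgG and IgE constant regions Ighg1, Ighg2b, Ighg2c, Ighg3 and Ighe gave 0 UMIs in both. Igha, the constant region of IgA, gave 0 UMIs in the intact members and 12 in the callus members, each in a different cell. That is 15.0 CPM in callus members, against 4.80 in callus neutrophils, which do not make IgA, and 10954 in the other callus Cd79 cells without precursor transcripts. Light chain Igkc (chr6:70726435-70726966, plus strand) was the most abundant receptor chain, at 8874 in the intact and 7559 in the callus members, with a median of 24 UMIs per cell in both.

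Most members carried more kappa than lambda light chain, but nearly all carried some of each. With at least 3 light chain UMIs required, 53 intact and 214 callus members could be typed. Both classes were detected in 51 intact (96.2%) and 206 callus cells (96.3%), and the median kappa share was 72.7% and 74.2%. Lambda was the majority in 6 intact cells (11.3%, 4.27 to 23.0) and in 21 callus cells (9.81%, 6.18 to 14.6). At least 90% of UMIs were kappa in 8 intact (6.75 to 27.6%) and 30 callus cells (9.66 to 19.4%). At least 90% were lambda in 0 of 53 intact cells (0 to 6.72) and in 5 callus cells (2.34%, 0.763 to 5.37). None of the intact T cells or neutrophils reached 3 light chain UMIs, and 3 callus neutrophils did. With at least 1 light chain UMI, 30 of 302 intact and 100 of 735 callus neutrophils carried some, in cells chosen to lack Cd79a and Cd79b. The part of stray light chain RNA in the mixed cells was not tested. Cd79 cells outside the members that had no precursor transcripts split more sharply, with 36.7% of intact and 41.1% of callus cells at 90% kappa or more. The lambda chains came from Iglc2 at 1912 and 1737, Iglc1 at 973 and 445, and Iglc3 at 887 and 777, which are near-identical copies, so the split among them is uncertain. Of Iglc1, 4 cells held 52.4% of the intact and 31.7% of the callus UMIs.

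**Figure D2:**
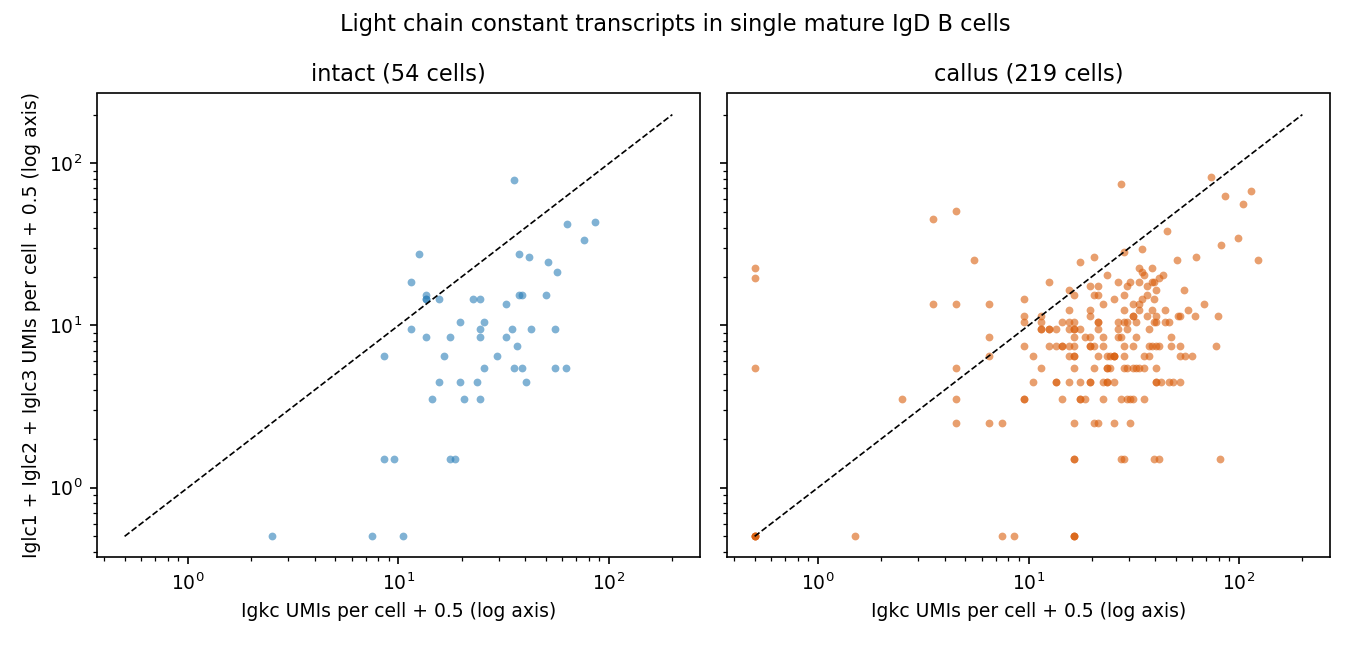
Kappa (Igkc) against lambda (Iglc1, Iglc2 and Iglc3) UMIs in each member, on log axes after adding 0.5, by library, with a dashed line where both are equal. Most cells lie below the line, with a median kappa share of 72.7% in the intact and 74.2% in the callus library.

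The variable genes were spread over many cells. In the intact members 112 UMIs of 53 variable genes were found in 43 of 54 cells, and the gene seen in the most cells, Iglv3, was in 4. In the callus members 222 UMIs of 90 variable genes were found in 127 of 219 cells, and Igkv1-110 was in 8 cells. No variable gene was thus carried by a large share of the members in either library, as far as the few UMIs of a 3′ assay show.

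The signalling parts of the receptor were detected in both libraries. Syk, the kinase recruited to the phosphorylated receptor, stood at 332 in the intact and 333 in the callus members, and the kinase Blk at 126 in both. Lyn, which starts both activating and inhibitory signals, stood at 429 and 258. Btk, the kinase mutated in X-linked agammaglobulinaemia, stood at 281 in the intact and 125 in the callus members, while Prkcb, a protein kinase C that acts below it, stood at 91.6 and 211. Btk and Prkcb were the only genes of the 16-gene signalling list with a difference of at least 2-fold between the libraries. Over 5726 genes with at least 20 summed UMIs, 608 (10.6%) were at least 2-fold higher in the callus and 239 (4.17%) at least 2-fold lower, with a median log2 ratio of 0.03. The signalling list had a median log2 ratio of 0.00.

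Co-receptors and inhibitors were detected in both libraries. Cr2, the complement receptor, stood at 85.9 in the intact and 96.1 in the callus members. Cd22, an inhibitory lectin, stood at 149 and 241. Ptpn6, the phosphatase that Cd22 recruits, stood at 532 and 304. The list of inhibitory receptors had a median log2 ratio of 0.23 with no member 2-fold apart. Of the activating co-receptors, Ifitm3 was at least 2-fold lower in the callus, and 1 cell held 38 of its 40 intact UMIs. Of Ifitm3, 1 intact and 13 callus UMIs were left without the 28 cells, under the 20 needed to compare it.

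Survival genes for the cytokine BAFF were detected in both libraries. Tnfrsf13c, the BAFF receptor, stood at 177 in the intact and 175 in the callus members, and Tnfrsf13b, the receptor TACI, at 166 and 165. Bcl2, which protects from apoptosis, stood at 74.4 and 117, and Mcl1, a relative of it, at 756 and 513. Traf3, a brake on BAFF signalling, had 1 UMI in the intact members and 44 in 38 callus cells. Its log2 ratio was 3.26 with a counting interval of 0.71 to 8.60, and it was the 1 of 8 survival genes past 2-fold, near the 10.6% of all genes that were higher.

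None of the 19 lineage transcription factors listed was 2-fold apart, where 10.6% of all genes were higher and 4.17% lower, and their median log2 ratio was -0.02. Klf2, which holds naive lymphocytes at rest and keeps their homing receptors on, stood at 2851 (2606 to 3113) in the intact and 2463 (2356 to 2574) in the callus members. Ebf1 stood at 2359 and 2106, and Pax5, which fixes B cell identity, at 252 and 347. Mef2c stood at 1666 (1480 to 1869) and 1268 (1191 to 1348), so its counting intervals and those of Klf2 were apart. Foxp1 stood at 985 and 913, and Bach2, a repressor of plasma cell fate, at 246 and 243.

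Homing receptors of B cells that pass through lymphoid organs were present in both libraries. Gpr183, which guides B cells to the follicle edge, stood at 750 in the intact and 480 in the callus members, and S1pr1, the receptor for exit into blood and lymph, at 481 and 292. Ccr7 stood at 475 and 392, Cxcr4 at 578 and 435, and Cxcr5, the receptor for the follicle chemokine CXCL13, at 91.6 and 84.8. S1pr4 was the only homing receptor past 2-fold, with 4 UMIs in the intact and 43 in the callus members, and 1 of 13 is near the 10.6% of all genes that were higher. The list had a median log2 ratio of -0.19, or -0.01 without the 28 cells.

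MHC class II genes were abundant in the members of both libraries. Their promoters are known for a conserved block of boxes of which the Y box, bound by NF-Y, is 1. RefSeq promoters of GRCm38.p6, 250 bases before to 50 after each start, were at hand for 8 of the 13 genes of the list, and Cd74, Cd83, Cd86, Ciita and H2-Ab1 had no entry. The letters TGATTGG were found on either strand in 6 of the 8, against 2568 of 32851 promoters (7.82%). The list was counted by gene, with a match in any of its promoters, and the background by promoter, so the units differ. The longer CTGATTGG, which contains it, was in 3 of 8 (37.5%) against 4.10% of all, and the octamer ATTTGCAT of immunoglobulin promoters in 0 of 8 against 1.74%. These came from 6 motifs searched, and a match shows letters, not binding. The 6 windows show the spacing of the core from the start site, with TGATTGG in capitals and the sequence on the gene's strand, 5′ to 3′.
H2-Aa, chr17:34287855-34287884, minus strand, core at -50: agagaattttcTGATTGGttctggcgagtt
H2-DMb1, chr17:34153117-34153146, plus strand, core at -63: gattcactcagTGATTGGtctgacctgcct
H2-DMb2, chr17:34145146-34145175, plus strand, core at -92: aagtcacttagTGATTGGactgacttaact
H2-Eb1, chr17:34305795-34305824, plus strand, core at -61: tcctttgatgcTGATTGGctcccagcactg
H2-Oa, chr17:34092323-34092352, plus strand, core at -45: gagaactgctcTGATTGGctgcttaccgca
H2-Ob, chr17:34238835-34238864, plus strand, core at -59: gtcttcgctctTGATTGGttaacagtgtga

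Cd74, the invariant chain that escorts class II molecules, stood at 9332 in the intact and 9441 in the callus members. The alpha chain H2-Aa, whose window is shown above, stood at 2891 and 3329, the beta chain H2-Ab1 at 2720 and 2627, and H2-Eb1 at 3109 and 2666. The peptide-loading genes H2-DMa and H2-DMb2 stood at 384 and 409, and at 321 and 314. H2-Oa and H2-Ob, which restrain loading in B cells, stood at 246 and 198, and at 521 and 487. Ciita, the master activator of the class II genes, stood at 103 and 186. Of the 13 listed genes, Cd86, a co-stimulatory ligand, was the only one past 2-fold, at 34.4 and 83.6. That share is near the 10.6% of all genes that were higher, and the median log2 ratio was -0.05. Without the 28 cells the median was 0.13 and Ciita was past 2-fold too, at 114 and 233, where 9.06% of all genes were. Cd83, a stabiliser of surface class II, stood at 532 and 338.

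Among receptors for microbial products, Cd180, a relative of Tlr4 on B cells, stood at 172 and 178, and its partner Ly86 at 281 and 230. Unc93b1, which carries nucleic acid sensors to endosomes, stood at 315 and 255. Tlr7, Tlr9 and Tlr4 themselves had 3, 0 and 2 UMIs in the intact and 4, 3 and 1 in the callus members, too few to compare.

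Germinal centre genes were nearly absent, while some genes listed for plasma and memory cells were present. Of the 9 germinal centre genes listed, none reached 20 UMIs. Of the plasma cell genes, Jchain had 0 and 1 UMI, Sdc1 0 and 2, and Tnfrsf17 none, while Irf4, Mzb1 and Xbp1 reached 20 UMIs. Mzb1, a chaperone of immunoglobulin assembly, stood at 378 and 433, and Irf4, a factor that B cells raise on activation, at 126 and 112. Of the 7 memory genes 1 did, the regulator Zbtb20, at 109 and 173. Of the 8 B-1 genes 3 did, and of the 9 marginal zone genes 7, or 1 and 4 without the 28 cells. In each of these lists 2 genes were at least 2-fold higher in the callus members, and 0 without the 28 cells, where 10.6% and 9.06% of all genes were. Cd5 of B-1 cells had 1 UMI in each library, and S1pr3 of marginal zone cells 1 and 3. The transitional markers Vpreb3 and Cd24a were present, at 578 and 645 and at 452 and 379, or 343 and 367 and 376 and 266 without the 28 cells, and 4 intact cells held 55.4% of the intact Vpreb3 UMIs.

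Against the other Cd79 cells of their own library, the members were higher in every class II gene compared. The rule chose the members by Ighd and Fcer2a in these same cells, so the contrast is given as a description. Of 6206 genes compared, 268 (4.32%) were at least 2-fold higher in the members in both libraries and 381 (6.14%) at least 2-fold lower. H2-Aa stood at 2891 in the intact members against 172 in the other intact Cd79 cells, and at 3329 against 136 in the callus. Gpr183 stood at 750 against 29.3 and 480 against 20.2, and Egr3, an early gene of receptor signalling, at 212 against 5.43 and 273 against 12.0. March1, which removes class II molecules from the surface, stood at 177 against 8.68 and 190 against 6.72, and Ms4a4c, a relative of CD20, at 132 against 5.43 and 127 against 3.26. All 12 class II genes compared were at least 2-fold higher in both libraries, as were 8 of 11 homing receptors, 5 of 8 activating co-receptors and 9 of 19 immediate early genes. Of the precursor genes 9 of 10 were at least 2-fold lower in both, as were 9 of 12 proliferation genes. Rag1, the recombinase of receptor gene assembly, stood at 22.9 against 205 and 11.2 against 112, and Mki67 at 5.73 against 306 and 212 against 611. Few members carried these levels. Rag1 stood at 126 and 41.8 in members with exactly 2 UMIs of Ighd and Fcer2a, and at 0 in those with more. In the callus, Mki67 stood at 1137 in the 14 precursor or cycling members and at 5.15 in the 195 not set apart.

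Plasma cells made up part of that contrast. The other Cd79 cells held 3 intact and 15 callus cells with at least 10 Jchain UMIs, and there were none among the members. With those left out, 6129 genes were compared, with 246 (4.01%) higher and 416 (6.79%) lower. The genes lowest in the members, Jchain and Igha, came from these cells, at 1632 and 1945 in the other intact Cd79 cells and 3095 and 5289 in the callus. Cells with precursor transcripts were 24 of the 225 other Cd79 cells in the intact and 195 of the 458 in the callus library. The comparison group thus differed in make-up between the libraries.

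Immediate early genes, which are switched on within minutes of a stimulus, included Fosb and Jun at higher levels in the callus members. Fosb, a partner of Jun in the factor AP-1, stood at 332 (252 to 429) in the intact and 875 (811 to 942) in the callus members, a log2 ratio of 1.40, or 1.54 without the 28 cells. Jun stood at 624 (512 to 753) and 1265 (1189 to 1346), a log2 ratio of 1.02, or 0.999 without them, just under 2-fold. Egr1, a zinc finger factor, stood at 91.6 (52.4 to 149) and 203 (173 to 237), and 1 intact cell held 62.5% of its intact UMIs. Without the 28 cells Egr1 stood at 40.3 and 189, which took its log2 ratio from 1.15 to 2.23.

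Not every gene of the group ran the same way. Cd69, which holds lymphocytes in tissue, stood at 429 (338 to 538) and 649 (594 to 707), and Fos at 1443 (1270 to 1632) and 1717 (1627 to 1810). Nr4a1 was at 292 and 293, and Junb was lower in the callus, at 2559 (2327 to 2808) and 1855 (1762 to 1952). Of the 19 listed genes with at least 20 UMIs, 3 were at least 2-fold higher in the callus and 0 lower, where 10.6% of all genes were higher and 4.17% lower. Their median log2 ratio was 0.25, against 0.03 over all genes. Without the 28 cells 4 were higher, with Jun no longer among them, and the median was 0.51. Over all genes, 4634 then reached 20 UMIs, of which 420 (9.06%) were at least 2-fold higher in the callus and 195 (4.21%) lower.

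The same difference was seen for Fosb as a share of cells at equal depth. After thinning, Fosb was seen in 38.0% (24.7 to 52.8) of intact and 64.2% (57.2 to 70.8) of callus members, and Cd69 in 48.0% (33.7 to 62.6) and 65.7% (58.7 to 72.2). Jun was seen in 56.0% and 57.8%, so its higher callus level was not seen as a higher share of cells. Neutrophils, whose median depth was 5721.5 UMIs in the intact and 8708 in the callus library, carried Fosb in 8.22% and 8.86% after thinning and Cd69 in 1.71% and 5.91%. Fosb was not particular to the members, since its log2 ratio of callus over intact was 1.03 in the other Cd79 cells without precursor transcripts, 0.88 in T cells and 0.38 in neutrophils. Jun had ratios of -0.57, -0.10 and 0.71 in those groups. Junb, at -0.46 in the members, was at -0.93, -1.04 and -2.02 there, so its lower callus level was not particular to the members. Whether handling or library had a part in these differences was not tested.

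**Figure D3:**
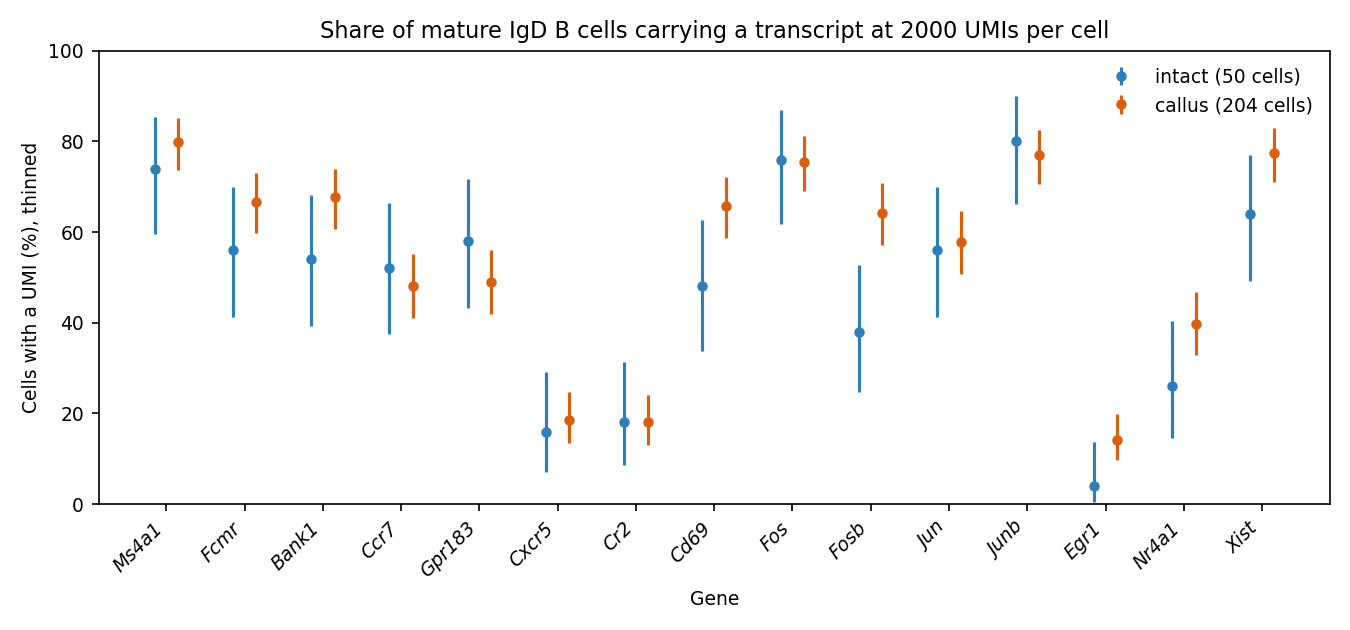
Percent of members with at least 1 UMI of each of 15 genes after thinning to 2000 UMIs, for 50 intact and 204 callus cells, with exact Clopper-Pearson 95% intervals as bars. Fosb was at 38.0% and 64.2% with intervals that did not overlap, while Ms4a1 was at 74.0% and 79.9%.

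The genes with the highest callus over intact ratios in the members included genes of muscle fibres. Among 2948 genes with at least 50 summed UMIs, 181 (6.14%) were at least 2-fold higher and 48 (1.63%) lower in the callus, and among 2193 without the 28 cells 111 (5.06%) and 34 (1.55%). The naming rule also left out genes with over 20% of their UMIs in 1 cell. The highest ratios belonged to Hjurp, Mylpf, Nin, Tnnt3, Ckm, Cep250, Zeb1, Acta1, Ap3b1 and Ctnnb1. Of these, Mylpf, Tnnt3, Ckm and Acta1 encode muscle proteins. Mylpf, a myosin light chain, stood at 22.9 in the intact and 198 in the callus members, with a log2 ratio of 3.11, or 2.66 without the 28 cells. Acta1, skeletal muscle actin, stood at 57.3 and 270, a ratio of 2.23, or 1.73 without them. Zeb1, a zinc finger repressor, stood at 17.2 and 83.6, with 3 UMIs in the intact members and a counting interval of its ratio of 0.67 to 4.60. Hjurp, a chaperone of centromeric histone, had 1 intact and 56 callus UMIs, with a ratio of 3.61 (1.07 to 8.94). Without the 28 cells Hjurp had 1 and 23 UMIs, and its ratio of 2.55 had an interval that reached below 0 (-0.07 to 7.92). The ratios of Nin were 1.79, 1.40 and 0.61 in the other Cd79 cells without precursor transcripts, T cells and neutrophils. Those of Hjurp were 0.80, 0.15 and 1.04, and those of Zeb1 -0.47, -0.08 and -0.16. Tnnt3 and Acta1 were lower in the callus in neutrophils only, and the other named genes were higher in each group.

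Most UMIs of the neutrophil and hemoglobin genes lay in few callus members, although many members carried some. S100a8 was detected in 110 and Hbb-bs, a beta globin, in 123 of 219 callus members. Mylpf was detected in 92 of 219 callus members and in 3 of 54 intact members. The 6 muscle genes listed summed to 126 CPM in the intact and 762 in the callus members, or 148 and 628 without the 28 cells. All 4 with at least 20 UMIs were at least 2-fold higher either way, where 10.6% and 9.06% of all genes were. The muscle sum was 432 in the intact and 606 in the callus among other Cd79 cells without plasma cells, 126 and 293 in T cells, and 194 and 188 in neutrophils. The 9 neutrophil genes, led by S100a8, summed to 258 and 11991, with 7 of 7 genes at least 2-fold higher, where 10.6% of all genes were. Without the 28 cells they summed to 275 and 810, with 3 of 5 genes higher, where 9.06% of all genes were. S100a8 and S100a9 had 29 intact and 7305 callus UMIs, of which 4 callus cells held 94.7%. S100a8 alone was at 74.4 in the intact and 4571 in the callus members, and at 106 and 6891 in the other Cd79 cells without precursor transcripts. Hemoglobin genes had 415 intact and 5738 callus UMIs, and 1 callus cell held 5407 of the latter, although the median member had 7 in the intact and 1 in the callus library. Without the 28 cells the erythroid list went from a median log2 ratio of 1.61 to -2.51. The 8 monocyte and macrophage genes summed to 1386 and 635, or 20.1 and 120 without the 28 cells. Most of this was Lyz2, a lysozyme of myeloid cells, with 229 intact UMIs, of which 1 cell held 226, and 435 callus UMIs, of which 1 cell held 219. Csf1r had 1 and 2 UMIs, C1qa 0 and 2 and Adgre1 1 and 3. Stromal genes summed to 57.3 and 51.2. T cell genes summed to 0 and 8.73 and NK cell genes to 0 and 3.74. The part of these transcripts in the member levels was not tested beyond leaving the cells out.

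The genes lower in the callus members were led by AY036118, a noncoding RNA gene, at 1769 in the intact and 171 in the callus, a log2 ratio of -3.37. Others were Copb1, Nmt1, Hypk, mt-Atp8, Eed, Sec61a1, Lars2 and Rpgrip1, from -1.78 to -1.34. AY036118 had ratios of -3.64, -3.20 and -3.31 in the other Cd79 cells without precursor transcripts, in T cells and in neutrophils. It was thus lower in the callus library in every cell group compared, not in the members alone. Lars2, Nmt1, Sec61a1, Rpgrip1 and Hypk were also lower in each group. Their ratios ran from -1.91, -1.58 and -1.69 for Lars2 to -1.03, -0.32 and -0.01 for Hypk. Copb1, mt-Atp8 and Eed were lower in the other Cd79 cells and T cells, Copb1 by only -0.06 and -0.24. In neutrophils they were higher, at 0.38, 0.13 and 0.56.

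**Figure D4:**
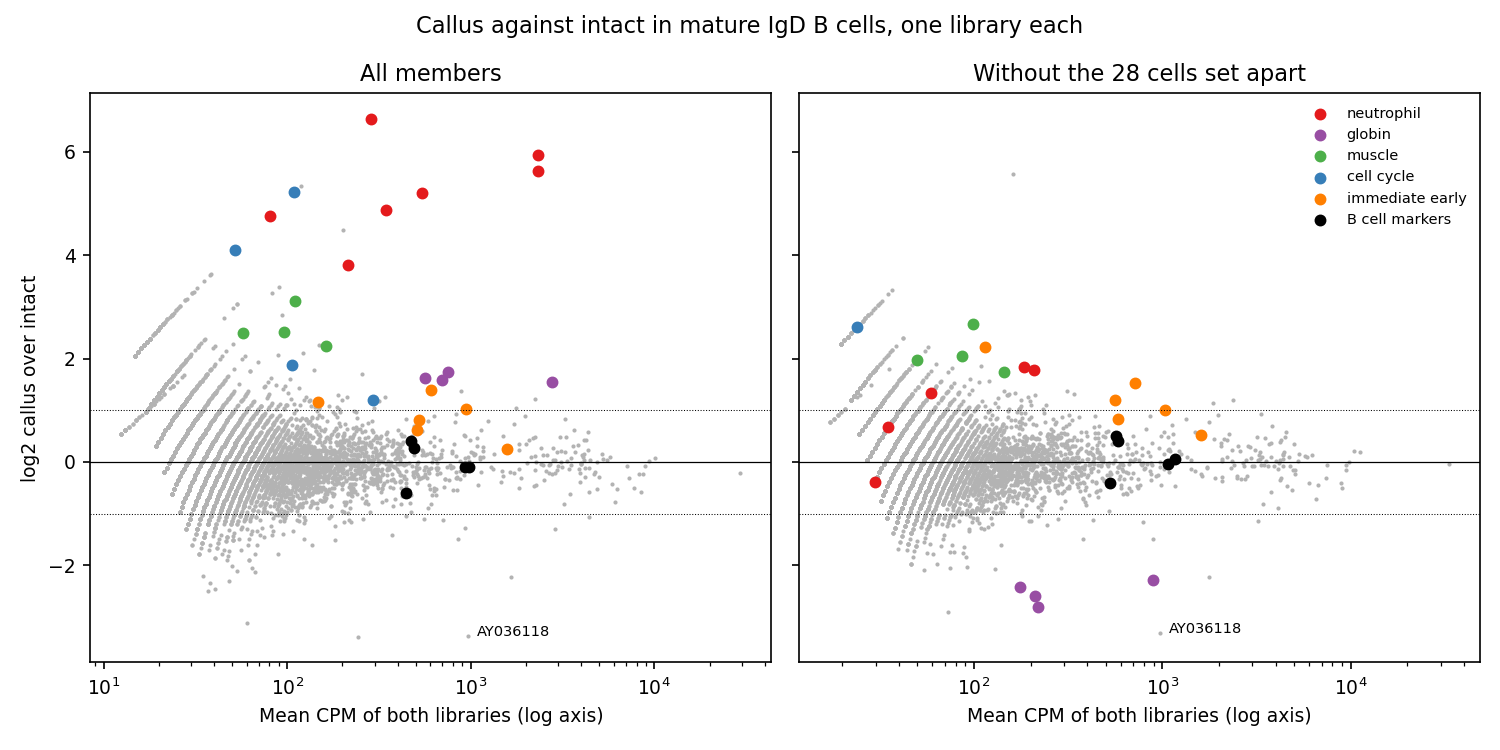
Log2 ratio of callus over intact against mean CPM of both libraries (log axis), 1 point per gene with at least 20 summed UMIs, for all members on the left and without the 28 cells on the right, with coloured points for listed genes and dotted lines at 2-fold. On the left 608 genes lie above the upper line and 239 below the lower, and the globin genes change sides between the panels.

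Most UMIs of the precursor and proliferation genes lay in the 28 cells. The precursor list had 3 of 7 genes past 2-fold and a median log2 ratio of 0.97, and the proliferation list 9 of 12 and 1.34, where 10.6% of all genes were at least 2-fold higher. Without the 28 cells no precursor gene reached 20 UMIs, and of the 3 proliferation genes that did, 1 was past 2-fold with a median of 0.13. The precursor sum went from 395 and 724 to 0 and 22.3, and the proliferation sum from 641 and 1596 to 296 and 350. These cells were chosen by such genes, so that change follows from the choice. Interferon-response genes had 1 of 7 past 2-fold, lower in the callus, and 0 of 6 without the 28 cells. Heat shock genes had 1 of 8 past 2-fold, higher in the callus, and 1 of 7 without them. For heat shock, 1 of 8 is near the 10.6% of all genes that were higher. For interferon response, 1 of 7 is above the 4.17% of all genes that were lower, but rests on 1 gene.

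**Figure D5:**
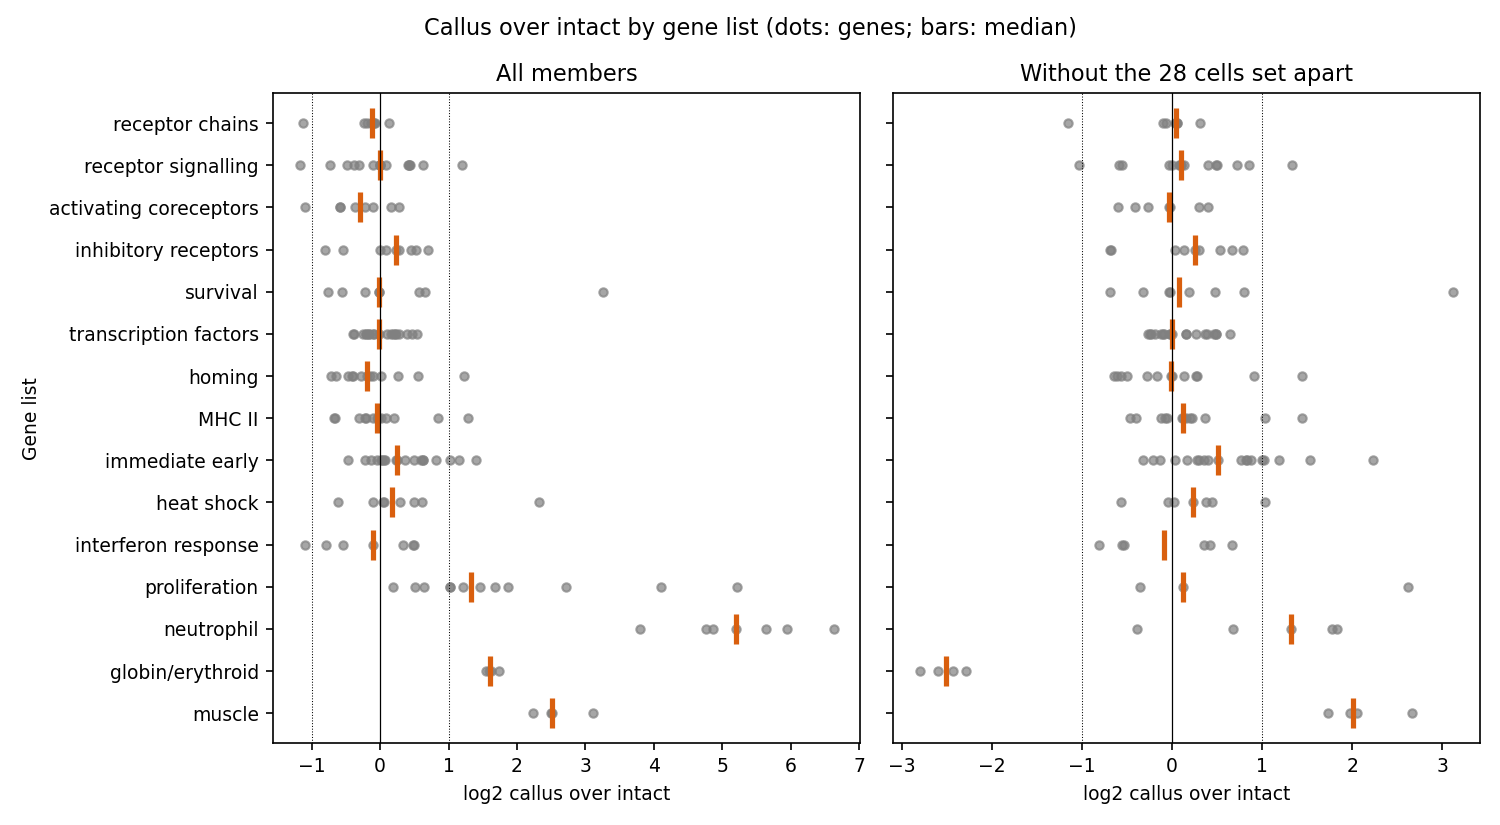
Log2 ratio of callus over intact for the genes of 15 lists with at least 20 summed UMIs, 1 point per gene with the median as a bar, for all members on the left and without the 28 cells on the right. The panels have different horizontal ranges, and the neutrophil median goes from 5.21 to 1.32 and the erythroid median from 1.61 to -2.51.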

How the data were processed

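The libraries were made with the 10x 3′ v3 kit from tdTomato+ cells of collagenase-digested tissue. Per the labels, reads were processed with cellranger 6.0.0, and the deposited matrices hold raw UMI counts per gene and cell, with 1872 intact and 3987 callus barcodes. Members and gene lists were chosen with earlier results of these data known. UMI counts were summed over members of a library and divided by their total, times 1000000. With 1 library per group no test was run, and genes were called past 2-fold by ratio alone. Exact 95% Poisson and Clopper-Pearson intervals cover counting error only, and a count of 0 was set against 3 counts. Named genes were the 10 highest and 10 lowest ratios among genes with at least 50 UMIs and at most 20% of them in 1 cell, and against other Cd79 cells among genes with at least 100 UMIs, and some of these and of the listed genes are not reported here. For shares, each cell was thinned to 2000 UMIs, which left out 4 intact and 15 callus members. No doublets were removed, since the default caller marked only 3 intact and 4 callus cells and was taken not to have worked. As an alternative the 12 intact and 87 callus cells with the highest scores were removed, 0 and 8 of them members. GRCm38 coordinates came from GENCODE, which held 32235 of 32285 gene identifiers (99.8%). The code, in python 3.11.15 with scanpy 1.11.5, was tested on simulated data.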

Additional observations from a re-analysis of the deposited data

Results flagged for a closer look

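Traf3 went opposite ways in the members when set against the other Cd79 cells of the same library. The log2 ratio was -1.92 in the intact and 1.52 in the callus library. The difference was not tested, and the intact value rests on 1 UMI. In all, 27 genes were at least 2-fold apart in opposite directions.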

How the results depend on the processing

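No paired analysis was possible because each group was 1 library and the labels carry no replicate numbers. Of the alternatives tried, 257 values kept their direction and size, 20 moved and 3 reversed, and all 20 named genes kept their direction under each of 9 settings. Among these settings, the limits of 1 and 50 UMIs per gene and centring on the median of 0.03 could not turn a named gene. With at least 1 UMI of Ighd and Fcer2a there were 84 intact members, 6.96% of cells, and callus members were 8.95%, or 5.13% with at least 3 UMIs. At a minimum of 50 UMIs per gene, 181 genes were at least 2-fold higher and 48 lower in the callus, and at 1 UMI 954 and 4233. Against other Cd79 cells, 136 genes were higher and 228 lower at 50 UMIs, and 2054 higher at 1 UMI, while leaving out the cells set apart gave 579 lower. In these counts 0 UMIs were set to 3 counts, which is 17.2 CPM in the intact and 3.74 in the callus members. A gene with 0 intact and 1 callus UMI (1.25 CPM) was thus counted as lower in the callus. The counts at 1 UMI therefore follow in part from that floor and are not read as differences. The B-1 list median reversed to -0.33 at 1 UMI, from 3 genes before. The erythroid median was -0.20 with cells weighted equally, 2.18 with at least 3 UMIs of Ighd and Fcer2a, and -2.51 without the cells set apart. The neutrophil median was 1.37 with the highest doublet scores removed and 1.32 without the cells set apart. Unthinned, callus members carried Ighd in 97.3%, Fcer2a in 59.8% and Xist in 84.9%, and Ighm in 100% of intact and 100% of callus cells. The cells set apart and the plasma cells were left out as alternatives chosen after the data were seen. With 54 intact members, genes with few UMIs cannot be compared between the libraries, and no spread between animals can be given.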
